A study of Saccharomyces cerevisiae with 21 samples.

Results

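In budding yeast (Saccharomyces cerevisiae), 2 samples grown for 96 h in fluconazole with methotrexate (MTX) were compared with 2 grown in fluconazole alone. These 4 libraries, of 21 in the series, were chosen by their titles, and each gives the read count of 361 strain barcodes in each of 62 pools. The study asks how variation across the genome alters protein interactions in living cells. The strains come from an in-house library in which a chromosomal barcode marks the genetic variant a strain carries. Each of 61 pools carries the name of a protein pair. The other pool is called a reference with no interaction, and the labels do not say which reporter it holds.

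All cultures grew at 30 °C in minimal medium with glucose and leucine and were passaged once a day. Fluconazole was at 100 µM in all 4 libraries, and MTX was at 10 µg/mL in those selected for the reporter. The 4 libraries of the same design without fluconazole served as the comparison. Each group had replicates A and B. Nothing in the labels says that A and B came from separate cultures, so the p-values below measure the spread between these samples, which may be technical. PCR products were pooled by growth medium before sequencing, and no molecular identifiers were mentioned, so counting errors cover the sampling of reads only.

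The assay is a protein-fragment complementation assay. Fragments of a drug-resistant dihydrofolate reductase are fused to the proteins of a pair and regain activity when the pair comes together, so growth in MTX depends on the reporter. MTX blocks the cell's own dihydrofolate reductase, an enzyme of nucleotide synthesis. Fluconazole is an azole antifungal that blocks Erg11, the lanosterol demethylase on the path to ergosterol, the main sterol of the yeast plasma membrane. Proteins of the endoplasmic reticulum, the plasma membrane and the vacuole make up much of the panel, and ERG11 itself is part of 10 pairs. All 44 protein names matched 1 locus tag each in RefSeq's gene table (assembly R64), which served for names only.

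The fluconazole libraries held 5928788 to 8039373 reads. A pool in one of them held 8831 to 850312 reads, with a median of 93048.5. In a pool of 93048 reads, a share of 10% carries an exact 95% binomial interval of 9.81% to 10.2%, and a count of 0 allows a share of up to 0.00322%. The unit tested is a strain barcode in 1 pool, termed a feature. Of 22382 features, 223 had no read in the 4 libraries. Features without a read made up 19.6% and 29.3% of replicates A and B with MTX, and 5.33% and 7.56% of A and B without it.

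The fluconazole replicates stood apart from each other. In 79 cases a strain held at least 10% of a pool in 1 fluconazole library and a share over 10 times lower in the other replicate. Such strains numbered 21 in replicate A and 19 in B with MTX, and 20 in A and 19 in B without MTX. The 16 other libraries taken at 96 h held 8 in all. These one-sided strains lay in 36 pools, and 25 of the 79 (31.6%) lay in pools with ERG11, which are 16.1% of the pools. The highest such share was that of strain 731 in the pool of ERG11 with TPO4, which held 89.3% of replicate B without MTX and 1.01% of A. In the pool of HNM1 with ERG11, strain 838 held 66.6% of replicate A with MTX and 0.608% of B. The part of cultures, wells or PCR in these gaps was not tested.

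The MTX effect of a feature is the log2 ratio of its share within the pool, with MTX over without. In edgeR's quasi-likelihood test on the 4 fluconazole libraries, 12871 features averaged 10 reads or more, and 4645 of them had a Benjamini-Hochberg adjusted p under 0.05 (36.1%). Such features are termed called. They comprised 646 higher with MTX (5.02%) and 3999 lower (31.1%). In 4604 calls (35.8% of tested features) the 2 MTX values lay wholly above or below the other 2. The median effect over all tested features was -2.20. Scaling by TMM within each pool moved that median to -0.96 and called 2934 features, of which 935 were higher. The share of calls that were higher thus went from 13.9% to 31.9%. A fit with all 20 libraries taken at 96 h, which share 1 estimate of the spread, called 8268 (64.2%), of which 1724 were higher (13.4%). A share is relative to its own pool, so an effect near the median of that pool marks a strain that kept its place. Pool medians ran from -4.13 to 0.09, and the test does not measure an effect against them. Every call rested on both MTX libraries: without either one edgeR called 0 features, although 4880 (without A) and 4413 (without B) had an unadjusted p under 0.05. The same test on the 4 libraries without drug called 8819 of 14839 features (59.4%), of which 1475 were higher (9.94%).

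How far a pool kept its strain differences was read from 3 measures. The first is Pearson's r, across the strains of a pool, between the MTX effects of replicates A and B. The second is the shared spread, the square root of the covariance of those effects, which leaves out noise that replicates do not share. The third is the overlap of calls with those made without drug. Strains of a pool share libraries, so r is a description without a test. The median r over 62 pools was 0.707 in fluconazole and 0.896 without drug. The median shared spread was 3.04 log2 units in fluconazole and 3.29 without drug. The ratio of both spreads had a median of 0.913 and was below 1 in 48 pools.

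**Figure D1:**
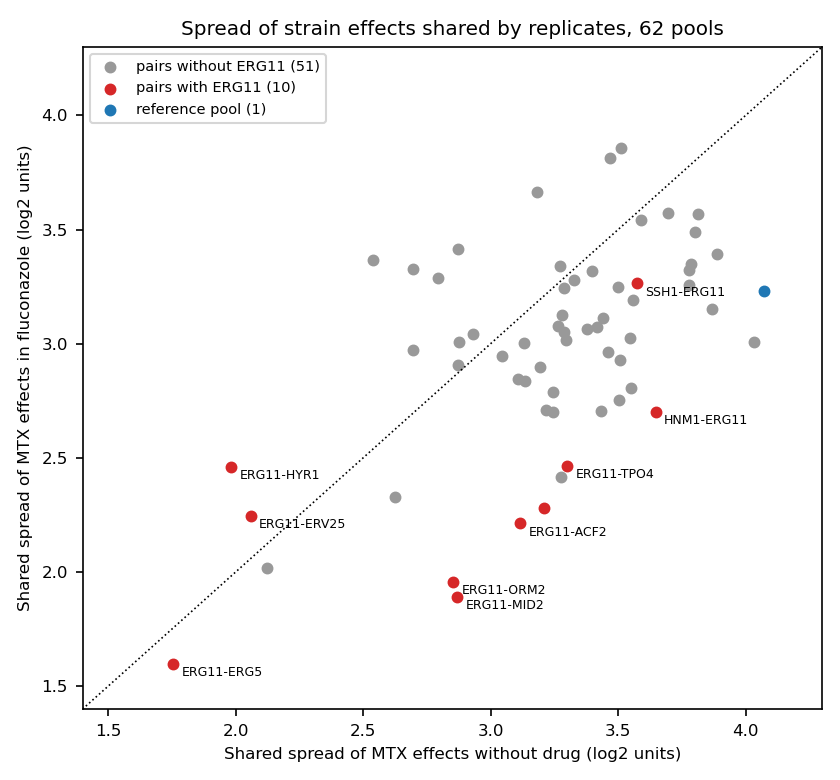
Shared spread of MTX effects (log2 units) in each of 62 pools, without drug on the horizontal axis and in fluconazole on the vertical axis. The dotted line marks equal spread; of the 10 pools with ERG11 (red), 8 lie below it, and ERG11-ERG5 lies lowest in fluconazole at 1.60.

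Pools with ERG11 (YHR007C), the target of fluconazole, had low values of these measures. Their median r in fluconazole was 0.424, against 0.723 in the 51 pairs without ERG11, and they supplied 8 of the 10 lowest pairs. Without drug the medians were 0.879 with ERG11 and 0.897 for the other pairs. The median shared spread of the ERG11 pools was 2.26 log2 units in fluconazole and 2.99 without drug. For the other pairs it was 3.07 and 3.30. The ratio was 0.744 with ERG11 and 0.917 for the other pairs. With the SD of the mean effect, which includes noise, the ratio was 0.933 with ERG11 and 0.974 for the others, so that difference was small by that measure. A narrower spread with ERG11 was also seen in the other drug media of the series. Its median with ERG11 and in the other pairs was 1.26 and 2.60 in metformin, 2.58 and 3.34 in 5-FC, and 2.70 and 3.26 in trifluoperazine.

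The median depth was 93058.5 reads per pool with ERG11 and 93487 in the other pairs, and its part in these values was not tested. Agreement between replicates was lower in ERG11 pools on both sides of the ratio. For log2 shares, the median r between A and B with MTX was 0.729 with ERG11 and 0.823 for the other pairs. Without MTX it was 0.588 and 0.728. A lower r was also seen when each fluconazole replicate was set against the no-drug effects. The ERG11 pools had a median r of 0.322 for A and 0.338 for B, against 0.583 and 0.551 in the other pairs.

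The partners of ERG11 were next compared with themselves. The partner comparison was chosen after its values were seen. In 9 of the 10 pools with ERG11, r in fluconazole was lower than in every other pool of the same partner. The same held for the shared spread in fluconazole in 9 of 10, and for the ratio of spreads in 6. The part of replicate noise in r was not tested. MID2 (YLR332W), a plasma membrane sensor of cell wall stress, had r of 0.356 with ERG11 and 0.583 to 0.793 in its 9 other pools. ERV25 (YML012W), a cargo adaptor of vesicles between endoplasmic reticulum and Golgi, had 0.335 with ERG11 and 0.604 to 0.804 in its 7 others. HNM1 (YGL077C), the choline transporter, had 0.514 with ERG11 and 0.615 to 0.758 in its 8 others. The exception was SSH1 (YBR283C), a translocon subunit of the endoplasmic reticulum. Its pool with ERG11 had r of 0.682, inside the range of 0.577 to 0.792 of its 3 other pools. Part of the pattern was present without drug. Among the partners reported by name, ERV25, ERG5, HYR1 and ORM2 had their lowest no-drug r with ERG11. MID2, HNM1, SSH1, ACF2 and TPO4 did not. For ERV25 the no-drug r was 0.583 with ERG11 and 0.882 to 0.937 in its 7 others. Its ratio of spreads with ERG11, 1.09, was above those of the 7 others (0.791 to 1.02).

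**Figure D2:**
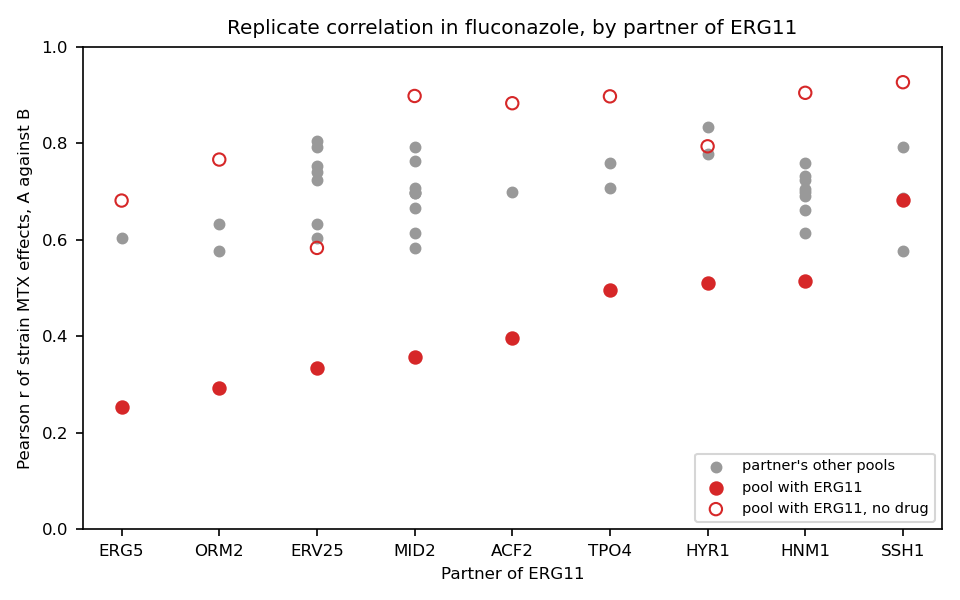
Pearson r across strains between the MTX effects of replicates A and B (vertical axis) for 9 of the 10 partners of ERG11. Filled red points are ERG11 pools in fluconazole, open red points the same pools without drug, and gray points the partner's other pools in fluconazole; 8 of these 9 filled points lie below all gray points of their partner.

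Fewer features of the ERG11 pools were called in fluconazole. With ERG11, 499 of 2009 tested features were called (24.8%), 103 of them higher, against the 36.1% of all features. In the pairs without ERG11, 4053 of 10651 were called (38.1%). Under TMM within each pool the shares were 15.8% and 24.1%, and with all 20 libraries in the fit 55.7% and 65.7%. Without drug, 51.4% of the features in ERG11 pools and 60.8% in the other pairs were called.

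Calls made without drug were then followed into fluconazole. Among features tested in both media, 969 of the ERG11 pools were called without drug. Of these, 245 (25.3%) were called in the same direction in fluconazole, which is 56.1% of the fluconazole calls among them. In the pairs without ERG11, 2870 of 5816 no-drug calls were repeated (49.3%), which is 79.4% of the fluconazole calls. The sign without regard to the threshold was shared by 72.1% of no-drug calls with ERG11 and 86.2% in the other pairs. The difference between these shares was not tested. With all 20 libraries taken at 96 h in 1 fit, the repeated shares were 50.4% and 71.2%.

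A call made in 1 medium and missed in the other is not a difference between media, so the difference of both MTX effects was tested directly over 8 libraries. edgeR called 1421 of 15006 features (9.47%), comprising 764 with a higher MTX effect in fluconazole (5.09%) and 657 with a lower one (4.38%). In 1417 (9.44%) the replicates did not overlap. With all 20 libraries 3971 were called (26.5%). On the 8 libraries, the ERG11 pools held 289 calls among 2595 features (11.1%), of which 191 were higher and 98 lower. The pairs without ERG11 held 1085 calls among 12120 (8.95%). The share was 22.1% for ERV25 with ERG5, the highest of all pools, and 16.7% for SSH1 with ERG11. The 2 media shared no library in this test.

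The sterol pairs follow one by one. ERG5 (YMR015C) is a sterol desaturase late in ergosterol synthesis, and its pool with ERG11 had the least shared spread of all 62 pools. It was 1.60 log2 units in fluconazole, with r of 0.253, and 1.76 without drug, with r of 0.681. The ratio of 0.911 was close to the median of all pools (0.913), so the pool was narrow in both media. Only 34 of its 232 tested features were called (14.7%), and 105 of 272 without drug (38.6%). The pool did not narrow measurably: the effective number of strains, the exponential of the Shannon entropy of the shares, was 34.0 and 36.9 with MTX and 52.1 and 29.5 without. Strain 339 in this pool held 0.157% and 1.08% with MTX and 0.00336% and 0.00377% without (log2 effect 7.40 ± 1.79 SE, adjusted p = 0.0180).

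The pool of ERG11 with MID2 had the lowest ratio of spreads, 0.659, from 1.89 log2 units in fluconazole and 2.87 without drug. Of its 229 tested features, 36 were called (15.7%), and 17 of 124 no-drug calls (13.7%) were repeated. Of 39 differences between media among 289 features, 33 were higher in fluconazole. Strain 658 held 0.00300% and 0.743% with MTX and no read in either library without it. Its mean share with MTX was at least 185-fold higher, taking 3 reads over the group as the floor (adjusted p = 0.0266). Its MTX replicates differed widely, and 5 reads stood behind the lower value. The bound rests on the higher value, as the lower one lay near the floor.

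ORM2 (YLR350W) restrains sphingolipid synthesis. The pool of ERG11 with ORM2 had a spread of 1.96 log2 units in fluconazole and 2.85 without drug, and r of 0.292. Of its 112 no-drug calls, 26 were repeated (23.2%).

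ACF2 (YLR144C) is a glucanase, and its pools allow the sterol enzymes ERG11 and ERG27 to be set side by side. With ERG27 (YLR100W), a sterol keto reductase, the spread was 3.07 log2 units with r of 0.699, and 68 of 124 no-drug calls (54.8%) were repeated. With ERG11 it was 2.21 with r of 0.397, and 30 of 85 were repeated (35.3%). The pool of ERG27 with ACF2 thus lay near the median of all pools in spread and r. ERV25 with ERG5 lay lower, with a spread of 2.81, r of 0.604 and 28 of 112 no-drug calls repeated (25.0%).

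The largest positive difference between media lay in the pool of ERV25 with ERG5. Strain 399 held 21.3% and 14.4% with MTX and 0.161% and 0.0958% without it in fluconazole. Without drug, it held 0.000553% and 0.00239% with MTX and 0.512% and 0.747% without. MTX raised its share in fluconazole and lowered it without drug, and the groups did not overlap in either medium (difference 15.69 ± 1.43 SE on the log2 scale, adjusted p = 8.78e-04). Strain 841 led replicate B of the same pool with MTX, with 31.2% there and 13.1% in A, against 0.05% and 0.0848% without MTX.

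Single strains also gained in the ERG11 pools with a transporter or the translocon subunit. In the pool of HNM1 with ERG11, strain 983 held 10.4% and 23.2% with MTX and 0.00316% and 0.0257% without (log2 effect 10.22 ± 1.70 SE, adjusted p = 0.0130). In the pool of SSH1 with ERG11, strain 689 held 16.1% and 30.2% with MTX and 0.0101% and 0.104% without (8.66 ± 1.62 SE, adjusted p = 0.0130). All MTX values lay above all others in both pools, which the rule for naming features required. In the same SSH1 pool, strain 476 had no read with MTX and 0.826% and 4.26% without, a mean share at least 1282-fold lower with MTX.

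In the other ERG11 pools, some strains rose mainly in 1 MTX replicate and others in both. In the pool with the polyamine exporter TPO4 (YOR273C), strain 841 held 0.479% and 11.0% with MTX and 0.0103% and 0.0303% without (8.13 ± 1.91 SE, adjusted p = 0.0171). In the pool with ERV25 the same strain held 0.531% and 5.50% with MTX and 0.00215% and 0.0173% without (adjusted p = 0.0159). The rule for naming features required both groups to stay apart, and the MTX replicates differed over 10 times. In the ERV25 pool, strain 180 had no read with MTX and 2.07% and 0.0457% without, a mean share at least 1352-fold lower with MTX. That bound rests on the higher of both values. In the ORM2 pool, strain 43_ref1 held 7.32% and 9.16% without MTX and had 1 read in each MTX library. The ratio of shares was 6493-fold, with an exact 95% counting interval of 1797 to 53621.

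The pool of ERG11 with HYR1 (YIR037W), a thiol peroxidase that senses oxidants, went the other way from most ERG11 pools in its ratio of spreads. Its spread was 2.46 log2 units in fluconazole and 1.98 without drug, a ratio of 1.24 that was exceeded only by MID2 with TPO2. The 2 other HYR1 pools had wider spreads in both media, 2.70 and 3.81 in fluconazole and 3.24 and 3.47 without drug. ERG11 with ERV25 also had a wider spread in fluconazole, 2.25 against 2.06 without drug, a ratio of 1.09. Strain 43_ref1 held 44.9% and 41.6% without MTX and 0.00102% and 0.00322%, from 1 and 3 reads, with it. Its log2 effect was -14.24 ± 1.51 SE (adjusted p = 0.0130). The summed reads gave a 21020-fold lower share with MTX, with an exact 95% counting interval of 8209 to 77147. Strain 77 took its place with MTX, at 30.2% and 25.8% against 0.0961% and 0.0104% without (9.02 ± 1.56 SE, adjusted p = 0.0130).

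**Figure D3:**
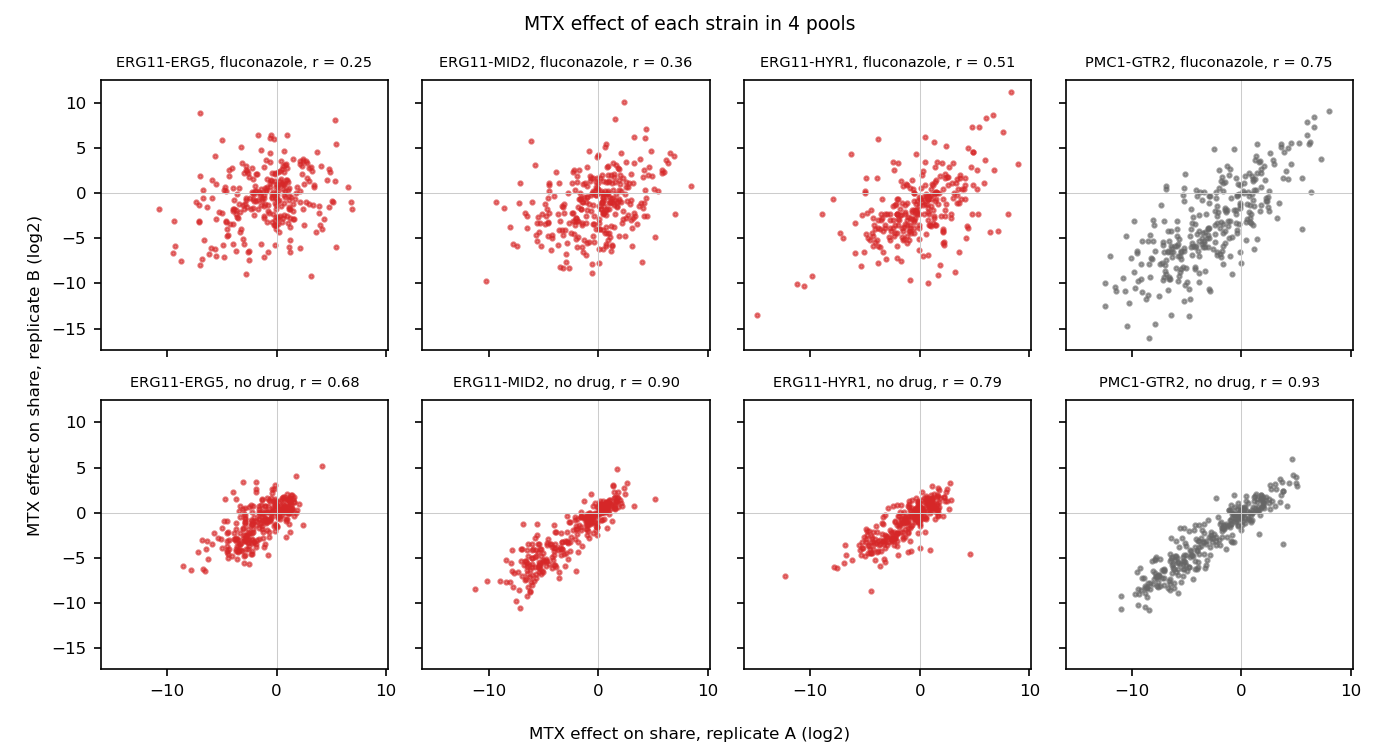
MTX effect on the share of each strain (log2) in replicate A (horizontal axis) and B (vertical axis) for 4 pools, in fluconazole (upper row) and without drug (lower row). Each point is a strain; in fluconazole r was 0.253 for ERG11-ERG5, 0.356 for ERG11-MID2, 0.511 for ERG11-HYR1 and 0.755 for PMC1-GTR2.

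Among the lists, vacuolar pairs repeated the highest share of no-drug calls (53.2%, against 45.9% over all pools). The lead was small, as metabolism and redox pairs repeated 51.7%, and the 7 vacuolar pools ranged from 33.3% to 69.4%. PMC1 (YGL006W), the vacuolar calcium pump, with GTR2 (YGR163W), a GTPase of a complex that signals amino acids, had the widest shared spread of all pools. It was 3.86 log2 units in fluconazole with r of 0.755, and 3.51 without drug. Of its features, 138 of 265 were called (52.1%), and 111 of 160 no-drug calls were repeated (69.4%). Strain 972 there held 2.78% and 11.8% with MTX and 0.0101% and 0.0213% without (8.85 ± 1.38 SE, adjusted p = 0.0130). Strain 721 had no read with MTX and 0.181% and 3.82% without, a mean share at least 6311-fold lower with MTX. That bound rests mainly on the higher value.

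PMC1 with CTR2 (YHR175W), the vacuolar copper transporter, had r of 0.735 between its effects in fluconazole and those without drug, the third highest of the pools. Strain 470 there held 22.7% and 20.4% with MTX and 0.0271% and 0.0401% without in fluconazole. Without drug the shares were 1.32% and 0.791% with MTX, and 0.0382% and 0.0494% without. The gain was larger in fluconazole (difference 4.73 ± 1.04 SE, adjusted p = 0.0234). Over the 7 vacuolar pairs the median r was 0.755, and 38.2% of features were called.

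Plasma membrane and cell wall pairs lay close to all pools, with a median r of 0.698 and 1908 of 5074 features called (37.6%) over 24 pools. Among these 24, pairs of MID2 with the polyamine exporters TPO2 (YGR138C) and TPO4 had the highest ratios of spreads. The spread of MID2 with TPO2 was 3.37 log2 units in fluconazole and 2.54 without drug, a ratio of 1.33. For MID2 with TPO4 it was 3.33 and 2.69, a ratio of 1.23. The no-drug spreads of both pools rest on a shallow replicate A with MTX. It held 4767 reads for TPO2 and 5627 for TPO4, against a median of 105440 per pool in that library. The part of depth in these ratios was not tested. In the pool of MID2 with TPO4, strain 653 held 2.15% and 1.89% with MTX and 0.00751% and 0.0110% without (7.75 ± 1.49 SE, adjusted p = 0.0132). TPO1 (YLL028W), another polyamine exporter, with TCB2 (YNL087W), a tether of endoplasmic reticulum to plasma membrane, repeated 62 of 87 no-drug calls (71.3%). That share was the highest of all pools.

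The remaining lists overlap with these. The 15 lipid pairs had a median r of 0.688 and 1076 of 3063 features called (35.1%). The 15 pairs of the early secretory pathway had 0.723 and 1007 of 2757 (36.5%). The 10 pairs of metabolism and redox enzymes had 0.748 and 812 of 2080 (39.0%). The 5 RNA-binding pairs had 0.720 and 303 of 1170 (25.9%), with the pool of SRO9 (YCL037C) and GIS2 (YNL255C) lowest at r of 0.410 and 35 of 225 called (15.6%). The 12 sterol pairs, which include the ERG11 pools, had 0.474 and 656 of 2422 called (27.1%). Loss of shared spread was thus not limited to ERG11 pools, since 39 of the 51 other pairs also had a ratio below 1.

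A few strains gained with MTX in most pools. Strain 983 was called higher in 53 of 62 pools, with a median share of 0.581% and 0.703% with MTX and 0.00809% and 0.0102% without. Strain 841 was called higher in 51 of 62 pools, with a median of 1.57% and 1.91% with MTX and 0.0379% and 0.0480% without. Strain 972 was called higher in 45 and strain 545 in 35. No pool called any of these 4 lower, and under TMM within each pool they were called higher in 56, 54, 47 and 40 pools. The 5 strains with most held 33.0% of all higher calls, and 5.02% of all features were called higher. The variants behind these barcodes were not used here.

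Strain 841 set fluconazole apart from the drug-free medium. Without drug it was called higher in 6 and lower in 4 of 51 pools, with a median share of 0.0333% and 0.0277% with MTX and 0.0414% and 0.0461% without. Its MTX effect was called higher in fluconazole than without drug in 37 of 62 pools and lower in none of them. Over all features, that call was made for 5.09%.

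Strain 838 went the other way. It led 47 and 46 of 62 pools in the no-drug MTX libraries, with a median share of 33.3% and 31.2%. In the fluconazole MTX libraries it led 10 and 5 pools, with a median of 4.85% and 4.36%, against 3.41% and 3.40% without MTX. Of 62 pools, 1 called it higher in fluconazole and 1 lower, whereas 51 called it higher without drug. The difference between media was called in 5 pools, all lower in fluconazole. The leading strain of a pool was the same in A and B in 29 of 62 pools with MTX in fluconazole and in 52 with MTX without drug.

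More strains were called lower with MTX than higher, as were more features. Of 351 strains tested, 299 were called lower in at least 1 pool and 78 in at least 20 pools. Higher calls were made for 117 strains in at least 1 pool and 8 in at least 20. Over all tested features 31.1% were called lower and 5.02% higher, so 20 of 62 pools called lower is close to that share. Under TMM within each pool, lower calls over all features went from 3999 to 1999 and higher calls from 646 to 935. Strains 731, 476, 959 and 739 were called lower in 55, 52, 50 and 49 pools in fluconazole and in 60, 61, 59 and 58 without drug. Strain 43_ref1 was called lower in 59 of 61 pools in fluconazole. Its median share was 0.366% and 0.331% without MTX and 0.000696% and 0% with it. Without drug it was too rare for a test in all but 4 pools, with medians of 0.00248% and 0.00274% without MTX. The difference between media was called in 34 of 57 pools, all with a lower effect in fluconazole. Most of these 57 pools passed the filter only through reads in fluconazole without MTX. Near 0 reads without drug, the strain could hardly fall there, so the direction of these calls was largely set beforehand. Under TMM within each pool 54 pools called it lower.

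**Figure D4:**
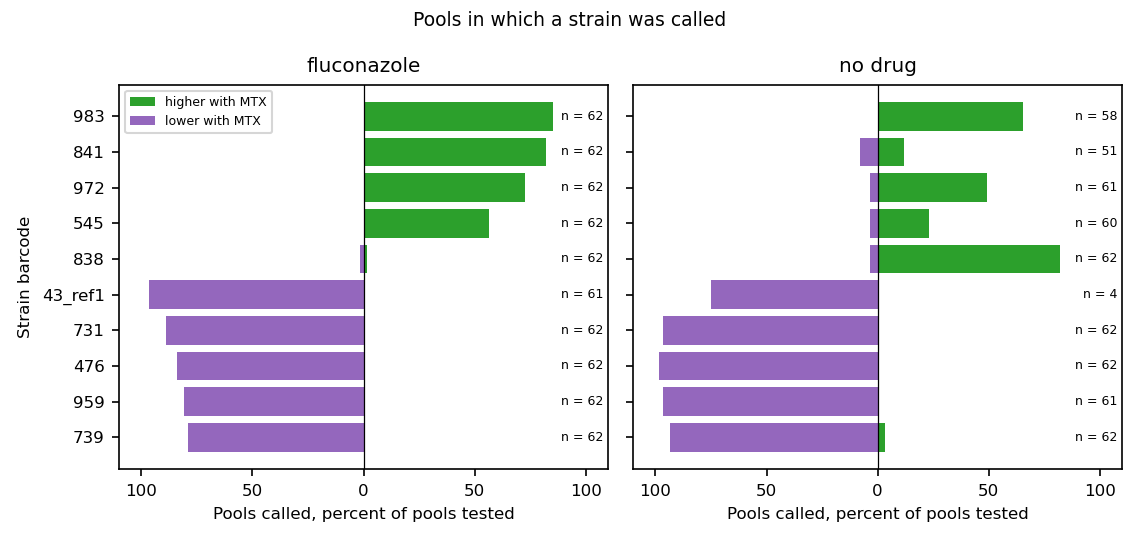
Percent of tested pools in which a strain was called higher (green) or lower (purple) with MTX, in fluconazole (left) and without drug (right), with the number of pools tested. Strain 841 was called higher in 51 of 62 pools in fluconazole and 6 of 51 without drug, and strain 838 in 1 and 51 of 62.

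Of 3312 features called in both media, 3184 had the same direction and 128 the opposite one. In the ERG11 pools 36 of 281 were opposite, and in the other pairs 89 of 2959. Strain 468 supplied 10 of the 128, all lower with MTX in fluconazole and higher without drug. The largest negative difference between media lay in the reference pool. There, strain 412 held 0.000968% and 0.00283%, from 1 and 2 reads, with MTX and 3.25% and 2.84% without in fluconazole. Without drug it held 3.17% and 2.37% with MTX and 0.0754% and 0.0636% without (difference -15.92 ± 1.52 SE, adjusted p = 0.00100).

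Narrowing of a pool as a whole was measured by the effective number of strains in limma, with Benjamini-Hochberg adjustment over 62 pools. MTX was called to lower it in 43 pools (69.4%) and to raise it in 0 (0.0%), while 44 pools had an unadjusted p under 0.05. Estimates ran from -3.50 to 1.92 on the log2 scale. With all 20 libraries in the fit, 48 pools were called lower and 1 higher. With ERG11, 4 of 10 pools were called, and 38 of the 51 other pairs. The median change was -0.57 on the log2 scale with ERG11 and -1.61 for the others. ALO1 (YML086C), an enzyme of erythroascorbate synthesis, with ADE17 (YMR120C), of purine synthesis, narrowed the most. Its effective number was 4.69 and 6.37 with MTX and 68.1 and 56.3 without (-3.50 ± 0.26 SE, adjusted p = 0.00459). Strain 545 made up 62.6% and 42.8% of that pool with MTX.

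Among membrane pairs, ERV25 with RBD2 (YPL246C), a rhomboid-like membrane protein of the Golgi, narrowed by over 3 log2 units. It had 2.05 and 2.73 with MTX and 25.4 and 20.9 without (-3.28 ± 0.26 SE), and strain 540 held 90.1% and 81.7% with MTX. In the same pool without drug, strain 931 held 80.9% and 91.8% with MTX, so a different strain led in each medium. Of the sterol pairs, ERG27 with ACF2 had 11.3 and 9.10 with MTX and 51.8 and 47.8 without (-2.30 ± 0.22 SE, adjusted p = 0.00459). SSH1 with ERG11 had 16.3 and 14.8 with MTX and 52.3 and 60.8 without (-1.86 ± 0.21 SE, adjusted p = 0.00586), the strongest narrowing among the ERG11 pools.

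**Figure D5:**
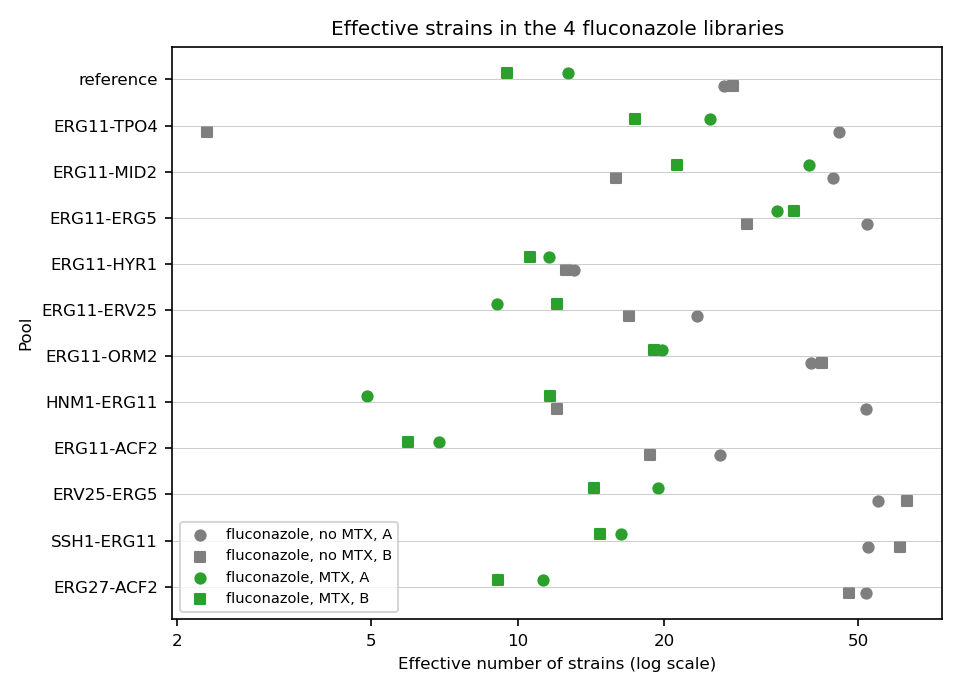
Effective number of strains (log axis) in the 4 fluconazole libraries for 11 of the 12 sterol pools and the reference pool, with circles for replicate A and squares for B, green with MTX and gray without. ERG11-TPO4 had 45.6 and 2.31 without MTX, the widest gap between replicates, and ERG27-ACF2 narrowed the most of the sterol pools.

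In some ERG11 pools the replicates without MTX lay far apart. The pool of ERG11 with TPO4 had 24.8 and 17.4 effective strains with MTX and 45.6 and 2.31 without (1.02 ± 1.56 SE, adjusted p = 0.599). That of HNM1 with ERG11 had 4.90 and 11.6 with MTX and 51.7 and 12.0 without. ERG11 with HYR1 differed from these, as its replicates lay close together, at 11.6 and 10.6 with MTX and 13.1 and 12.6 without (-0.21 ± 0.19 SE, adjusted p = 0.381).

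Whether MTX narrowed a pool less in fluconazole than without drug was tested over 8 libraries. limma called 5 of 62 pools (8.06%), all with less narrowing in fluconazole, while 23 had an unadjusted p under 0.05. In 3 of the 5 the partner was RET2 (YFR051C), a subunit of the vesicle coat between Golgi and endoplasmic reticulum. Its pool with SNA3 (YJL151C), a vacuolar sorting protein, had 1.72 and 1.37 effective strains with MTX and 1.88 and 2.67 without in fluconazole. Without drug it had 1.45 and 1.35 with MTX and 11.9 and 29.1 without (difference 3.19 ± 0.60 SE, adjusted p = 0.0292). Strain 756 held 89.1% and 86.9% of that pool in fluconazole without MTX, and 46.6% and 34.7% without drug or MTX. The RET2 pool was thus narrow in fluconazole with and without MTX. An effective number cannot fall below that of a single strain, so this pool had little room to narrow there. The direction of its call was largely set beforehand, as it was for the other RET2 pools called.

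In the pool of ADE17 with GIS2, the MTX libraries differed between media. It had 9.43 and 8.16 effective strains with MTX in fluconazole and 3.80 and 3.52 without drug (difference in narrowing 1.97 ± 0.29 SE, adjusted p = 0.0141). Strain 760 held 20.1% and 7.63% there with MTX in fluconazole and 49.8% and 58.1% without drug. For ERG11 with HYR1 the difference was 1.07 ± 0.23 SE (adjusted p = 0.0410), with 25.9 and 26.6 effective strains with MTX and 61.7 and 66.3 without it in the drug-free medium. The call for RET2 with SNA3 was lost without replicate A with MTX (adjusted p = 0.0864), that for RET2 with EMP47 without replicate B lacking MTX (adjusted p = 0.0528), and that for ERG11 with HYR1 without replicate A with MTX or B without it (adjusted p = 0.0517 and 0.0531).

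The last comparison set each pool against the reference pool, to ask whether a strain's MTX effect in fluconazole depends on the protein pair. edgeR called 206 of 9410 features (2.19%), 151 higher than in the reference pool (1.6%) and 55 lower (0.584%), none of them with overlapping replicates. The count fell to 0 without replicate A with MTX (2020 at an unadjusted p under 0.05) or without either replicate lacking MTX (887 and 900), and to 19 without replicate B with MTX. With all 20 libraries 3015 were called (32.0%), with 37.8% in ERG11 pools and 30.9% in the other pairs. Under TMM within each pool 139 of 226 calls were higher (61.5% instead of 73.3%), and under median-of-ratios scaling 116 of 221 (52.5%). Among features averaging 50 reads or more the direction turned, with 27 of 61 calls higher (44.3%), as it did in the fit with all 20 libraries, with 1469 of 3015 (48.7%). On the 4 libraries, ERG11 pools held 59 of 1542 (3.83%), of which 50 were higher, and the pairs without ERG11 held 147 of 7868 (1.87%). The same reference counts entered every pool, so calls of 1 strain are not independent. The calls came from 62 of 210 strains, and 5 strains held 102 of them (49.5%).

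Strain 192 was higher than in the reference pool in 49 of 53 pools. In the reference pool it fell from 19.8% and 21.4% without MTX to 0.0261% and 0.0255% with it. Strain 811 was lower in 16 of 59 pools, and in the reference pool it held 2.19% and 1.41% with MTX and 0.0175% and 0.0390% without. The part of the reference pool's own shares in these calls was not tested. Strain 689 was lower than in the reference pool in 10 of 61 pools. In the pool of ADE17 with GIS2 it held 0.0447% and 0.0261% with MTX and 1.70% and 1.82% without there, and 13.8% and 20.9% with MTX in the reference pool against 0.0105% and 0.0353% without (difference -15.20 ± 1.97 SE, adjusted p = 0.00729). Whole pools were alike to a varying degree. The r between the mean effects of 2 pools had a median of 0.647 (0.262 to 0.895) over 223 couples that share a protein. Over 1607 couples that share none it was 0.614 (0.227 to 0.853). With the reference pool, the median r was 0.438 for ERG11 pools and 0.634 for the other pairs.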

How the data were processed

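Barcode counts in the 62 pools of the 4 fluconazole libraries were analysed, with the 4 drug-free libraries as comparison. The deposited counts are whole numbers of reads per barcode and pool, not normalized. Per the labels' protocols, genomic DNA went through nested PCRs, with the cycle number set by qPCR. How reads were filtered and assigned to barcodes is not given in the sources used here.

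The tests on counts ran in R 4.3.3 with edgeR 4.0.16 (quasi-likelihood, log pool total as offset, features averaging 10 reads or more), on only the groups compared, and effective strains with limma 3.58.1. Benjamini-Hochberg adjustment ran over all features or pools of a test. Log2 effects for r and spread used a pseudocount of 0.5 reads, and strains averaging 10 reads or more over 8 libraries. Alternatives were TMM, median-of-ratios scaling, DESeq2 1.42.0, voom with group weights, other filters, a pseudocount of 5 reads, Spearman correlation, the inverse Simpson index, thinning with vegan 2.7.1, all 20 libraries at 96 h, the replicate letter as a term and leaving out each library. The tests were checked on simulated counts.

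Named pools are those with an ERG protein, the reference, the 3 highest and lowest of each measure and up to 5 per direction in each pool test. Named features are the called ones with the largest log2 change per direction, over all pools, in named pools and in lists, with replicates that do not overlap. Features and pools named for other measures, the one-sided strains and the strains counted over pools were chosen after their values were seen. Members, lists and tests were chosen with earlier results of these data known. Some pools are counted in the totals but not reported here by name. Barcode sequences and strain genotypes were not used here. Endings of barcode names such as 43_ref1 are not explained in the labels, and such barcodes were kept as separate strains.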

Additional observations from a re-analysis of the deposited data

Results flagged for a closer look

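The MTX effect differed between fluconazole and no drug for 1421 features in edgeR's test of the difference itself. The 5 pools in which limma found less narrowing with MTX in fluconazole were RET2 with SNA3 (3.19 on the log2 scale), ADE17 with GIS2 (1.97), RET2 with EMP47 (1.90), RET2 with EMP70 (1.70) and ERG11 with HYR1 (1.07). RET2 with EMP47, a lectin-like protein of the early secretory pathway, had 2.00 and 3.74 effective strains with MTX and 3.18 and 3.58 without in fluconazole, and 1.38 and 1.68 against 7.22 and 6.85 without drug. RET2 with EMP70 had 2.00 and 1.71 against 3.45 and 3.03 in fluconazole, and 1.52 and 1.45 against 9.11 and 7.82 without drug. The RET2 pools were narrow in fluconazole before MTX was added to the comparison. The direction of their calls was therefore largely set beforehand.

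Among the features with the largest differences between media, over all pools or within the ERG11 pairs, were strain 399 in ERV25 with ERG5 (15.69), strain 43_ref1 in ERG11 with TPO4 (-15.42) and strain 412 in the reference pool (-15.92). Fitted values against libraries with no or few reads depend on edgeR's prior and are not bounds. Strain 43_ref1 in ERG11 with TPO4 had no read with MTX in fluconazole and held 0.689% and 0.283% without, a mean share at least 409-fold lower with MTX. Without drug it held 0.00315% and 0.0210% with MTX and 0.00106% and 0.00270% without. Its no-drug shares without MTX rest on few reads.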

How the results depend on the processing

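No feature or called pool that was followed changed sign under an alternative, but medians and majorities did. Followed features were those named over all pools, in lists, or in pools with an ERG protein or the reference. Pools without a call in a pool test, such as ERG11 with TPO4, were not followed. The median difference between media went from 0.30 to -0.41 without replicate A with MTX, and calls that were higher from 53.8% to 48.1% and 48.9% without replicate A or B lacking MTX and 49.0% at 50 reads or more. The median against the reference pool went from -0.06 to 0.57 without a filter, to 0.27 and 0.20 without replicate A with or lacking MTX, and to 0.01 with the replicate block. The count of MTX effects in fluconazole (4645) was 2916 with TMM over libraries, 2934 with TMM within pools, 8268 with all 20 libraries and 0 to 3895 when 1 library was left out. The count of differences between media (1421) was 2693 with DESeq2, 604 with TMM over libraries and 3971 with all 20 libraries. The count against the reference pool (206) was 1140 with DESeq2, 3015 with all 20 libraries (a fit chosen after seeing the data), 61 of 2735 features averaging 50 reads or more, 607 of 21713 without a filter and 0 to 19 when 1 library was left out. The smallest of these 0 counts at an adjusted p had 887 features with an unadjusted p under 0.05. Narrowed pools (43) numbered 21 with the inverse Simpson index. Pools with a difference in narrowing (5) numbered 23 with all 20 libraries (18 with less narrowing in fluconazole), 12 with the inverse Simpson index and 5 to 18 when 1 library was left out, with 9 without replicate B with MTX and 18 without replicate A lacking MTX. Other counts stayed within 1.5 times. The replicate letter did not pair the samples, since the A minus B differences of groups correlated at -0.0263 to 0.009, and with the letter as a replicate block 4254, 975, 138, 36 and 5 calls were made in the same order of tests. Under that block ERG11 with HYR1 lost its difference in narrowing (adjusted p = 0.0588). All 35 features named for the MTX effect in fluconazole lost their call without either MTX library. The median ratio of spreads was 0.744 to 0.822 with ERG11 and 0.915 to 0.955 in the other pairs over the pseudocounts, filters and pairings tried, and in each of them 9 of 10 ERG11 pools had the lowest r of their partner's pools. With 2 replicates a group, 1 library can end a call, and strains near 0 reads have no order among them.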
